A study of Homo sapiens with 6 samples.

Results

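The 39 genes described here make or organise ribosomes in the nucleolus. They were chosen by name, as the rows of the deposited gene table that carry the symbols of a list of factors. The list covers ribosomal RNA (rRNA) processing, small nucleolar ribonucleoproteins (snoRNPs), RNA polymerase I and nucleolar growth. It was drawn up with earlier results of these data known. All 39 were among the 28752 genes of the table, and all 39 passed the filter on low counts that left 16458 genes for testing. RNA was sequenced from SH-SY5Y, a human neuroblastoma cell line, 72 h after transfection with OE-NC or with OE-circSHPRH, with 3 libraries in each group. The abbreviations OE and NC are not spelled out in the labels; OE-NC served here as the control. The name circ-SHPRH refers to a circular RNA made from SHPRH. The construct was the only difference the labels give between the groups, which share the line, the time point and the RNA extraction. Whether the replicates were separate cultures is not recorded, so that a p-value reflects spread among these libraries only, and that spread may be technical.

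Ribosomes are built in the nucleolus. RNA polymerase I transcribes the long rRNA precursor, snoRNPs of the box C/D and box H/ACA classes guide methylation and pseudouridylation of it, and assembly factors fold and cut it into the RNAs of the small and the large subunit. Growing and dividing cells spend much of their RNA and protein synthesis on this pathway. The transcription factors MYC and, in neuroblastoma, MYCN are known to drive many of its genes through a DNA element called the E-box.

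Gene counts summed to 15645261 to 17591718 per library. The share of counts from the mitochondrial genome set apart 3 low-share libraries at 10.2% to 10.3% (controls 1 and 2 with OE-circSHPRH 3) from 3 high-share libraries at 11.4% to 12.1% (control 3 with OE-circSHPRH 1 and 2). Each class thus holds libraries of both groups. Counts of SHPRH, the host gene, were 2.91-fold higher in OE-circSHPRH. These gene counts cannot tell reads of the circular RNA from reads of the linear transcript. All 7 sympathetic neuroblastoma markers had counts, from 10.7 CPM (counts scaled to library size) for TH to 1363 CPM for HAND2 in OE-NC. Of the other cell types, the fibroblast markers ran from 29.7 to 467 CPM in OE-NC, and the epithelial and immune genes with a row, EPCAM and CD14, had at most 39 and 24 counts in a library.

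No gene of the 39 passed the test, but most were slightly lower in OE-circSHPRH. Of the 39 log2 fold changes 31 were negative (79.5%, against 49.2% of all genes tested), and the median was -0.09, a 0.942-fold level, against 0.0019 over all genes. In the 24 genes whose exons overlap no other gene than a snoRNA or miRNA the median was -0.05. With edgeR's quasi-likelihood test and Benjamini-Hochberg adjustment over all genes, 0 of the 39 had an adjusted p under 0.05, against 31 of 16458 genes (0.188%). DESeq2, which gave no adjusted p for 4 of the 39, and limma-voom also called 0. The lowest edgeR adjusted p of the 39 was 0.218. At an unadjusted edgeR p under 0.05, 12 of the 39 were lower, against 5.02% of all genes tested and 6.09% of the 8485 genes at 20 CPM or more. In the upward direction 0 of the 39 were, against 5.33%. By the same measure DESeq2 had 10 lower and limma-voom 12, and neither had any higher. The share of all genes at this cutoff is not given here for these methods, which used the same libraries. In 14 of the 39 every OE-circSHPRH library was below every OE-NC library (background 7.56%), and in 0 every one was above (background 7.99%). These counts and medians describe genes chosen with earlier results of these data known, and carry no test of the list as a whole. In bulk RNA, fewer cells of a kind and less RNA per cell cannot be told apart.

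**Figure D1:**
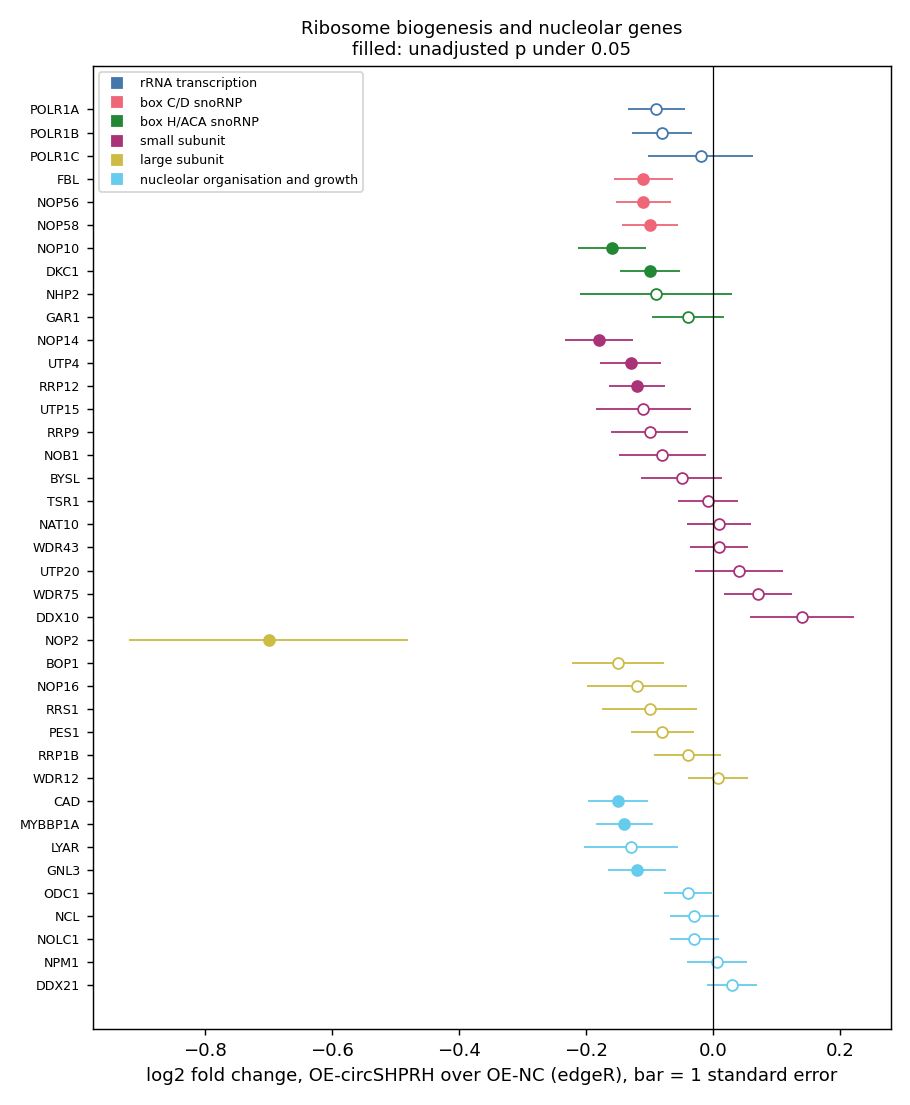
Log2 fold change (OE-circSHPRH over OE-NC, x axis) of each of the 39 genes (y axis, ordered by role), with bars of 1 standard error from edgeR; filled points have an unadjusted p under 0.05. Most points lie between -0.2 and 0, all 12 filled points are negative, and NOP2 stands apart at -0.70 with the widest bar.

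Together the 39 genes took 0.670%, 0.674% and 0.671% of all counts in OE-NC replicates 1 to 3. In OE-circSHPRH they took 0.641%, 0.644% and 0.642%. The groups did not overlap, and the means were 0.672% ± 0.00188 and 0.642% ± 0.00191 (SD, n = 3 each). Nor did they for 126 other genes of the pathway, at 1.09%, 1.1% and 1.07% in OE-NC and 1.03%, 1.04% and 1.06% in OE-circSHPRH. As a second summary, each gene's log2 CPM was centred on its mean over the 6 libraries and the median over the 39 genes was taken in each library. It was 0.04, 0.05 and 0.03 in OE-NC replicates 1 to 3 and -0.02, -0.02 and -0.05 in OE-circSHPRH replicates 1 to 3. Over the 126 other pathway genes the median was 0.02, 0.03 and 0.02 in OE-NC and -0.01, -0.02 and -0.02 in OE-circSHPRH. Over all genes tested it stayed between 0.0014 and 0.0035. Between 8 and 13 of the 39 genes were below their own mean in each OE-NC library, and between 27 and 29 in each OE-circSHPRH library.

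**Figure D2:**
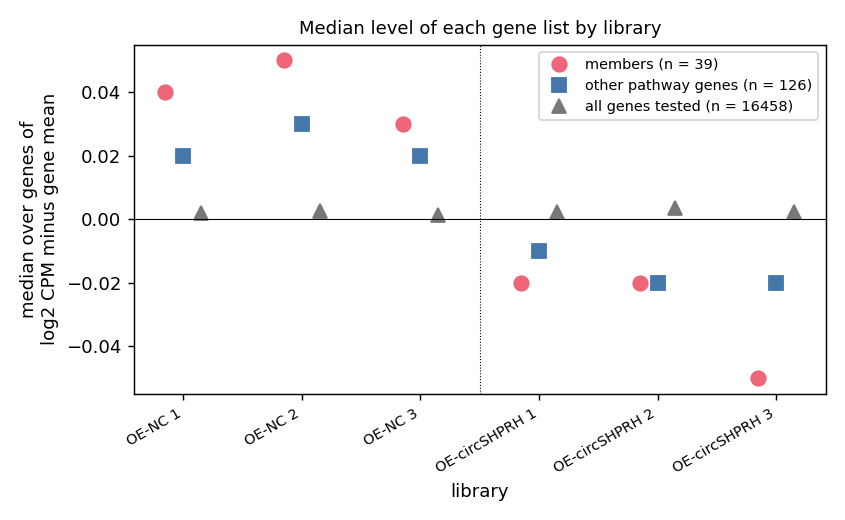
Median over genes of log2 CPM minus the gene's own mean (y axis) in each library (x axis) for the 39 genes, 126 other genes of the pathway and all 16458 genes tested. The 39 genes sit at 0.03 to 0.05 in the OE-NC libraries and at -0.05 to -0.02 in the OE-circSHPRH libraries. The 126 other pathway genes sit at 0.02 to 0.03 and at -0.02 to -0.01, and all genes stay near 0.

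The promoters of the set were searched for the E-box CACGTG, which reads the same on both strands, in the RefSeq windows from 250 bases before to 50 bases after each annotated start (GRCh38.p14). Windows were matched for 33 of the 39 genes, and a gene with several windows was counted once if any held the motif. The E-box was found in 17 of 33 genes (51.5%), in 27 of 112 other pathway genes (24.1%), in 1355 of the 10853 tested genes with a window (12.5%) and in 2396 of all 27305 genes (8.77%). In 16 of the 17 the copy nearest the start lay between -31 and 35 bases of it, counting the start as 0 and later bases as positive. Median GC content, from a single window per gene, was 64.0% in the set and 65.3% in tested genes. For the set a window with the motif was used where present, otherwise that nearest the gene's start. For tested genes it was the first listed, so the values are not strictly alike. The 17 genes with the motif had a median log2 fold change of -0.10 with 13 negative, and the 16 without it had -0.08 with 12 negative. The motif was chosen with earlier results of these data known, and whether it bears on the fold changes was not tested. Printed here 5′ to 3′ are the windows of the 6 genes with the smallest p-values. They were taken from genes of the set with a window and a mean log2 CPM of at least 3. E-boxes are in capitals, and where a gene has several windows the one with the motif is shown.
NOP14 promoter (chr4:2963357-2963656, minus strand): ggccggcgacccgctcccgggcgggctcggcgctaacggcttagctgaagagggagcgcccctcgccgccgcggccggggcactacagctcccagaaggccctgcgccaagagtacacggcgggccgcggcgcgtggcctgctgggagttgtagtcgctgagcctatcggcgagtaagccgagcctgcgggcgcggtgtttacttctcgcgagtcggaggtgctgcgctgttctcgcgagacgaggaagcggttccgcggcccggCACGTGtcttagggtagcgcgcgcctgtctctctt
MYBBP1A promoter (chr17:4555335-4555634, minus strand): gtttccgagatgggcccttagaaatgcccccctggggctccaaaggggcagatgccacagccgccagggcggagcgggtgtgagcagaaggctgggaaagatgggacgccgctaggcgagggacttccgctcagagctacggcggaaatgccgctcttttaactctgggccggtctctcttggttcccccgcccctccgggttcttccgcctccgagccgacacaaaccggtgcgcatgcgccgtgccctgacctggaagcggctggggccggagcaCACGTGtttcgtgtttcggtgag
NOP10 promoter (chr15:34343087-34343386, minus strand): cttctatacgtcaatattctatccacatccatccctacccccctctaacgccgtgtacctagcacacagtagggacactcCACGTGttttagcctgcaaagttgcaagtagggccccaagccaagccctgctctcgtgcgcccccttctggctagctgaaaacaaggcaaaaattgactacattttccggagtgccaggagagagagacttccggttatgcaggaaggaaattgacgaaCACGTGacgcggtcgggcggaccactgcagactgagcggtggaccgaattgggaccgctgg
UTP4 promoter (chr16:69132399-69132698, plus strand): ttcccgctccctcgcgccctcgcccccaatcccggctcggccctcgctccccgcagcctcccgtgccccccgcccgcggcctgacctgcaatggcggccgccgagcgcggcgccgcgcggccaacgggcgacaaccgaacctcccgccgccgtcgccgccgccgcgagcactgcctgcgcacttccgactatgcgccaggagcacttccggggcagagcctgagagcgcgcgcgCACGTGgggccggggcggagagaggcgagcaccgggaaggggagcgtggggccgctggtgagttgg
GNL3 promoter (chr3:52685782-52686081, plus strand): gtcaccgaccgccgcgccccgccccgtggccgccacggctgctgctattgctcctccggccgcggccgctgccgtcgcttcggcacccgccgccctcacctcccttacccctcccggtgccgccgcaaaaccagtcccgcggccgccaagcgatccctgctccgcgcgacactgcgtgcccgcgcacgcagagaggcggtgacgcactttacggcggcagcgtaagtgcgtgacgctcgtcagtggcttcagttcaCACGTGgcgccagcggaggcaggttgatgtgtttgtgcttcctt
CAD promoter (chr2:27217119-27217418, plus strand): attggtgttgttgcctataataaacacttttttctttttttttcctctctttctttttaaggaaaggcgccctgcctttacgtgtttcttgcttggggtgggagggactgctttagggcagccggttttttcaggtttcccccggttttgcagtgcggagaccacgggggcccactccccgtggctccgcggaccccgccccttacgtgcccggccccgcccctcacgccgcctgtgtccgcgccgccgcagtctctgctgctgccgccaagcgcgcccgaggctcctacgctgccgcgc
In NOP14, MYBBP1A and GNL3 the E-box lies 15, 27 and 6 bases after the start and in UTP4 16 bases before it (position -16). NOP10 holds 2 copies, the nearer at position -11. The window of CAD holds none, which says only that these letters are absent from it. The RefSeq starts used for UTP4 and GNL3 lie 1358 and 4876 bases inside the GENCODE spans of these genes.

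The 3 RNA polymerase I genes of the set had negative log2 fold changes, and none had an unadjusted p under 0.05. POLR1A, the largest subunit, was at 140, 135 and 137 CPM in OE-NC replicates 1 to 3 and at 131, 125 and 132 CPM in OE-circSHPRH. Every OE-circSHPRH library was below every OE-NC library, and edgeR put the log2 ratio at -0.09 (SE 0.0449, adjusted p = 0.532). POLR1B, the second-largest subunit, was at 130, 129 and 132 CPM in OE-NC and at 130, 123 and 118 CPM in OE-circSHPRH, where replicate 1 reached the control range. POLR1C, a subunit shared with RNA polymerase III, was at -0.02 on the log2 scale (SE 0.0828), and its exons overlap those of 4 genes on the opposite strand. Among the other pathway genes listed under rRNA transcription, 10 were negative and 3 positive. POLR1D, among the positive ones, was at 127, 128 and 128 CPM in OE-NC and at 140, 130 and 130 CPM in OE-circSHPRH. For POLR1D every OE-circSHPRH library was above every OE-NC library (log2 fold change 0.06, SE 0.0464, edgeR adjusted p = 0.689).

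All 3 genes of the set listed under the box C/D snoRNP had groups that did not overlap, lower in OE-circSHPRH. Among all genes tested this held for 7.56%. FBL, or fibrillarin, the methyltransferase of the particle, was at 165, 161 and 160 CPM in OE-NC and at 142, 151 and 157 CPM in OE-circSHPRH. FBL had a log2 ratio between groups of -0.11 (SE 0.0464, edgeR adjusted p = 0.394). NOP56, a scaffold protein of the particle, was at 174, 181 and 175 CPM in OE-NC and at 168, 165 and 159 CPM in OE-circSHPRH (log2 fold change -0.11, SE 0.0435, adjusted p = 0.380). NOP58, its partner in the scaffold, was at 178, 167 and 169 CPM in OE-NC and at 158, 164 and 160 CPM in OE-circSHPRH (log2 fold change -0.10, SE 0.0440, adjusted p = 0.457). The narrowest gap of these 3 was that of FBL, with OE-circSHPRH replicate 3 at 157 CPM beside OE-NC replicate 3 at 160 CPM. SNU13, outside the set and listed under snoRNP assembly among the other pathway genes, did overlap between groups. It was at 163, 160 and 149 CPM in OE-NC and at 152, 144 and 141 CPM in OE-circSHPRH (log2 fold change -0.11, SE 0.0482, edgeR adjusted p = 0.427).

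All 4 box H/ACA protein genes had negative log2 fold changes, with a median of -0.10. Lower at an unadjusted edgeR p under 0.05 were 2 of them (50%, against 5.02% of all genes tested). NOP10, the smallest, was at 85.3, 85.4 and 78.8 CPM in OE-NC and at 72.6, 73.7 and 76.3 CPM in OE-circSHPRH. The groups did not overlap, and the log2 fold change was -0.16 (SE 0.0536, edgeR adjusted p = 0.259). DKC1, or dyskerin, the pseudouridine synthase, was at 176, 187 and 185 CPM in OE-NC and at 170, 161 and 179 CPM in OE-circSHPRH, so that OE-circSHPRH replicate 3 lay inside the control range. The log2 ratio for DKC1 was -0.10 (SE 0.0470, edgeR adjusted p = 0.457). NHP2, which binds the guide RNA, was at 46.4, 47.6 and 44.7 CPM in OE-NC but at 31.3, 44.2 and 54.6 CPM in OE-circSHPRH. Its coefficient of variation in OE-circSHPRH, 26.9%, was the highest of the 39 in either group, and its log2 fold change of -0.09 had an SE of 0.12 and turned to 0.10 without OE-circSHPRH replicate 1. GAR1 had a log2 fold change of -0.04 (SE 0.0569).

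**Figure D3:**
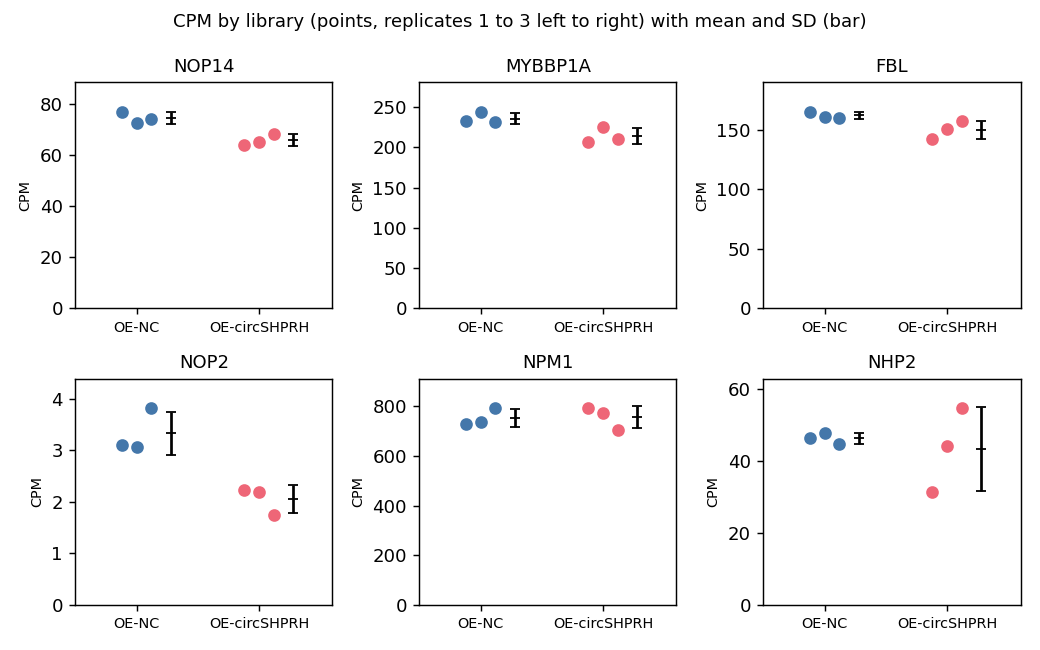
CPM (y axis) of 6 of the genes in each library of OE-NC and OE-circSHPRH; points are replicates 1 to 3 from left to right and bars are the mean and SD. NOP14, MYBBP1A, FBL and NOP2 show no overlap between the groups, NPM1 overlaps throughout, and NHP2 runs from 31.3 to 54.6 CPM within OE-circSHPRH.

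Of the 13 small-subunit factors, 8 were negative and 5 positive, with a median log2 fold change of -0.05. In 3 the unadjusted edgeR p was under 0.05, all lower (23.1%, against 5.02% of all genes tested). NOP14, a factor of the complex that carries out the early cuts of the small-subunit rRNA, was at 76.9, 72.4 and 74.0 CPM in OE-NC and at 64.0, 65.1 and 68.3 CPM in OE-circSHPRH. It had the smallest unadjusted p of the 39 (0.00391), and the log2 difference between groups was -0.18 (SE 0.0542; edgeR adjusted p = 0.218); an antisense gene, NOP14-AS1, overlaps 605 bases of its exons. UTP4, a factor that joins the precursor early, was at 120, 120 and 123 CPM in OE-NC and at 115, 112 and 105 CPM in OE-circSHPRH (log2 fold change -0.13, SE 0.0483, adjusted p = 0.347). RRP12, known from yeast for the export of precursor particles, was at 170, 174 and 163 CPM in OE-NC and at 156, 153 and 157 CPM in OE-circSHPRH (log2 fold change -0.12, SE 0.0435, adjusted p = 0.304). None of these 3 overlapped between groups.

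The other 10 small-subunit genes overlapped between groups. WDR43, at 42.3 ± 1.19 FPKM in OE-NC (SD, n = 3) the most abundant of the 13 per length, was at 174, 172 and 182 CPM in OE-NC and at 186, 176 and 169 CPM in OE-circSHPRH, a log2 fold change of 0.0092 (SE 0.0460). NAT10, which acetylates the small-subunit rRNA, had 0.0091 and TSR1, a late assembly factor, had -0.0081. The positive end was held by the helicase gene DDX10 (0.14, SE 0.0820, edgeR adjusted p = 0.597), WDR75 (0.07, SE 0.0534) and UTP20 (0.04, SE 0.0694). DDX10 was at 44.5, 39.5 and 33.8 CPM in OE-circSHPRH replicates 1 to 3 against 35.4, 35.1 and 36.6 CPM in OE-NC, so that its replicate 3 was below all controls. UTP15 (-0.11), the U3 snoRNP protein gene RRP9 (-0.10), NOB1, the nuclease of the last cut of the small-subunit rRNA (-0.08), and BYSL (-0.05) were negative, with SEs of 0.0753, 0.0605, 0.0680 and 0.0639.

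Of the 7 large-subunit factors 6 were negative, with a median of -0.10. NOP2, an rRNA methyltransferase, had the largest log2 fold change of the 39, -0.70 (SE 0.22, edgeR adjusted p = 0.252). It was at 3.10, 3.07 and 3.82 CPM in OE-NC and at 2.23, 2.19 and 1.74 CPM in OE-circSHPRH, with no overlap. This rests on 49 to 67 counts in each control library and 29 to 38 in each of the others, whereas no other of the 39 genes had under 455 counts in any library. The annotated readthrough gene AC006064.6 (chromosome 12, 6556886 to 6607367, minus strand, GENCODE 29, GRCh38) covers 54.4% of the exon bases of NOP2 and 46.9% of those of its neighbour CHD4. AC006064.6 was not analysed here, and reads that fall on both genes cannot be told apart, so the level and the fold change of NOP2 are uncertain. CHD4 had a log2 fold change of -0.03 (SE 0.0700).

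PES1, BOP1 and WDR12 form a complex needed for the large-subunit rRNA. PES1, at 46.4 ± 2.22 FPKM in OE-NC (SD, n = 3), was the most abundant per length of the 7 large-subunit factors among the 39. It was at 217, 221 and 201 CPM in OE-NC and at 188, 204 and 211 CPM in OE-circSHPRH. The groups overlapped, with a log2 fold change of -0.08 (SE 0.0496). BOP1 had -0.15 (SE 0.0728), and OE-NC replicate 2, at 82.7 CPM, lay above the other controls at 68.9 CPM each. WDR12 had 0.0076 (SE 0.0474), a value far inside its standard error. RRS1, a factor for loading the smallest rRNA, had -0.10 (SE 0.0747), NOP16 -0.12 (SE 0.0783) and RRP1B -0.04 (SE 0.0526).

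The 9 genes of nucleolar organisation and growth held the most abundant transcripts of the set. MYBBP1A, a nucleolar repressor of transcription, was at 232, 244 and 231 CPM in OE-NC and at 207, 225 and 210 CPM in OE-circSHPRH, without overlap (log2 fold change -0.14, SE 0.0444, edgeR adjusted p = 0.240). CAD, the enzyme that starts pyrimidine synthesis, was at 195, 191 and 181 CPM in OE-NC and at 162, 175 and 175 CPM in OE-circSHPRH, also without overlap (log2 fold change -0.15, SE 0.0466, adjusted p = 0.252). GNL3, or nucleostemin, a nucleolar GTPase of dividing cells, was at 140, 140 and 142 CPM in OE-NC and at 134, 130 and 125 CPM in OE-circSHPRH (log2 fold change -0.12, SE 0.0455, adjusted p = 0.353). In all 3 genes the highest OE-circSHPRH library lay below the lowest OE-NC library.

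ODC1, the first enzyme of polyamine synthesis, was at 753, 751 and 766 CPM in OE-NC and at 737, 728 and 736 CPM in OE-circSHPRH. NOLC1, a chaperone of snoRNPs, was at 337, 342 and 344 CPM in OE-NC and at 333, 332 and 334 CPM in OE-circSHPRH. For both the groups did not overlap, yet the log2 fold changes were only -0.04 (SE 0.0373) and -0.03 (SE 0.0385), and neither had an unadjusted p under 0.05. NPM1, or nucleophosmin, was at 729, 739 and 793 CPM in OE-NC and at 792, 772 and 706 CPM in OE-circSHPRH (log2 fold change 0.0056, SE 0.0469), and the groups overlapped; this was the smallest of the 39 differences. NCL, or nucleolin, had -0.03 (SE 0.0385), the helicase gene DDX21 had 0.03 (SE 0.0392) and LYAR -0.13 (SE 0.0740).

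**Figure D4:**
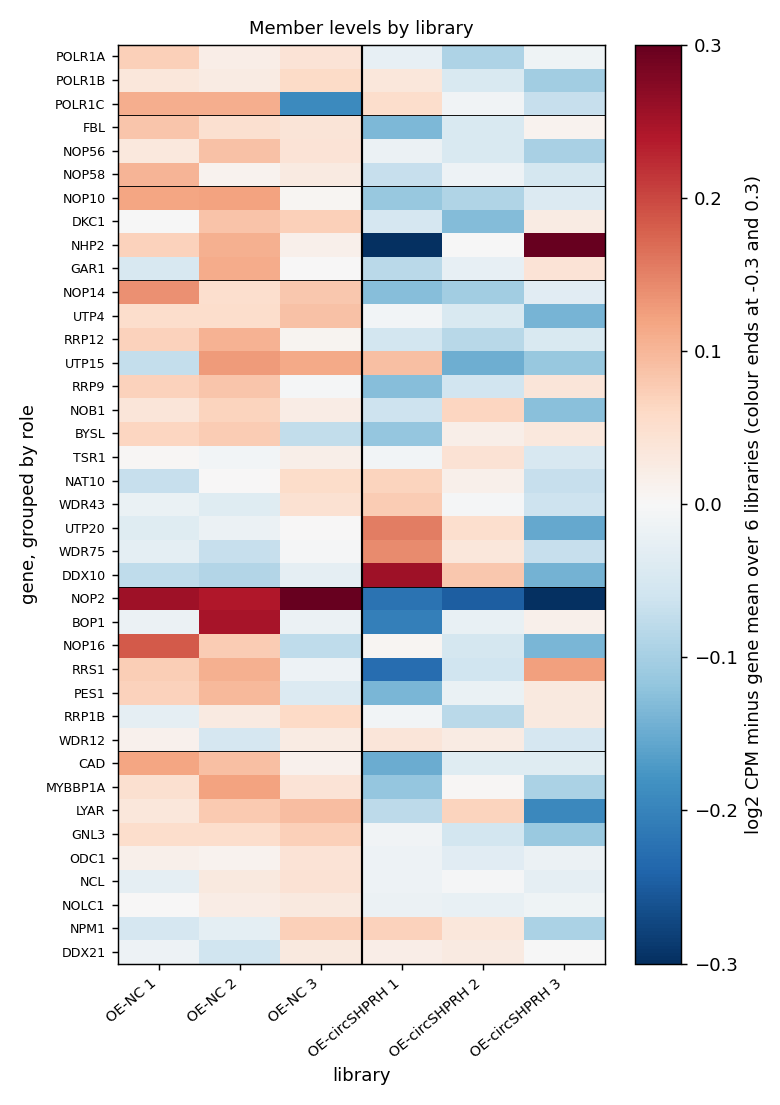
Log2 CPM minus the gene's mean over the 6 libraries (colour, blue lower and red higher) for the 39 genes (y axis, grouped by role) in each library (x axis); the colour scale ends at -0.3 and 0.3. OE-NC columns are mostly red and OE-circSHPRH columns mostly blue, with NHP2, RRS1, UTP20 and DDX10 turning between OE-circSHPRH replicates 1 and 3.

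By level per length, the deposited FPKM of the 39 genes in OE-NC ran from 0.704 ± 0.0901 for NOP2 to 253 ± 2.84 for ODC1 (SD, n = 3 each). The median was 22.2 FPKM against 4.52 over all genes tested, and 37 of the 39 were above the latter. After ODC1 came NPM1 (195 ± 8.98), NOP10 (149 ± 6.74), DDX21 (117 ± 3.57), NCL (102 ± 2.58), NOLC1 (85.2 ± 0.910) and FBL (73.8 ± 1.14), all SD with n = 3, and the steps between these neighbours were larger than their SDs. Next came NOP58 (51.6 ± 1.79) and PES1 (46.4 ± 2.22), again SD with n = 3. The neighbours DKC1, WDR43 and GNL3 differed by less than their largest SD and lay at 43.1, 42.3 and 42.0 FPKM with SDs of 1.31, 1.19 and 0.423. At the low end, above NOP2, were DDX10 (4.09), UTP20 (5.32), POLR1C (5.59) and UTP15 (6.53).

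Within the OE-circSHPRH group, replicates 1 and 3 differed in which of the genes were low. The difference of log2 CPM, replicate 1 minus replicate 3, was lowest for NHP2 (-0.80), RRS1 (-0.35), BOP1 (-0.22), PES1 (-0.17) and RRP9 (-0.16), whose deposited lengths are 1510, 1706, 3716, 4557 and 1578 bases. At the other end it was 0.39 for DDX10, 0.34 for NOP2 and 0.31 for UTP20, with lengths of 8653, 4687 and 10024 bases. Across the 39 genes Spearman's rho between this difference and gene length was 0.45, and across all 16458 genes tested it was 0.15. For the difference between the groups, OE-circSHPRH minus OE-NC, rho with length was 0.31 across the 39 genes and 0.07 across all genes tested. Between control replicates 3 and 1 it was 0.29 and 0.05. These correlations are across genes that share libraries and are given as a description. Replicate 1 was the library with the highest mitochondrial share, 12.1%, and replicate 3 was at 10.2%. The part of that share in these differences was not tested.

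The groups were also compared within each class of mitochondrial share. Among the low-share libraries alone, the difference of mean log2 CPM had a median of -0.06 over the 39 genes and was negative in 34. Among the high-share libraries alone, the median was -0.07 with 32 negative. The same medians over all genes tested were 0.0027 and -0.0019, with 8116 and 8309 of the 16458 genes negative. In 27 of the 39 genes both differences were negative, and over all genes tested this held for 4703 of 16458. These are comparisons of 1 library with 2, made from the libraries already used above. With this class as a term in edgeR, the median of the 39 was -0.06 in place of -0.09, 6 genes turned direction, and the lowest adjusted p was 0.0904. The part of the mitochondrial share in the difference between groups was not tested beyond these values.

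A further 126 genes of ribosome biogenesis were listed by role as a comparison, and all were tested. In 89 of them the log2 fold change was negative (70.6%); the median was -0.04, and none had an edgeR adjusted p under 0.05. At an unadjusted p under 0.05, 13 were lower (10.3%, against 5.02% of all genes tested) and 1 was higher (0.794%, against 5.33%), and DESeq2 called 1 after adjustment. In 17 every OE-circSHPRH library was below every OE-NC library (13.5%, against 7.56% of all genes tested), and in 2 every one was above (all genes 7.99%). PELP1, a subunit of a complex of large-subunit maturation, was at 129, 128 and 124 CPM in OE-NC and at 109, 108 and 111 CPM in OE-circSHPRH. Its groups were well apart, and the log2 difference was -0.22 (SE 0.0451; edgeR adjusted p = 0.0537). It was the gene called by DESeq2 (adjusted p = 0.00966). MDN1, the large ATPase of large-subunit maturation (-0.12, SE 0.0467), TCOF1, or treacle, a factor of rRNA transcription (-0.11, SE 0.0412), and BRIX1 (-0.16, SE 0.0656) had the next smallest p-values. On the positive side the smallest p-values were those of MAK16 (0.12, SE 0.0551), RIOK3 (0.09, SE 0.0560), RBM28 (0.07, SE 0.0508) and UTP3 (0.09, SE 0.0654). The medians by role were -0.03 for rRNA transcription (13 genes), -0.03 for the small subunit (44), -0.05 for the large subunit (46), -0.05 for snoRNP assembly (8) and -0.03 for the exosome and exonucleases (15).

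**Figure D5:**
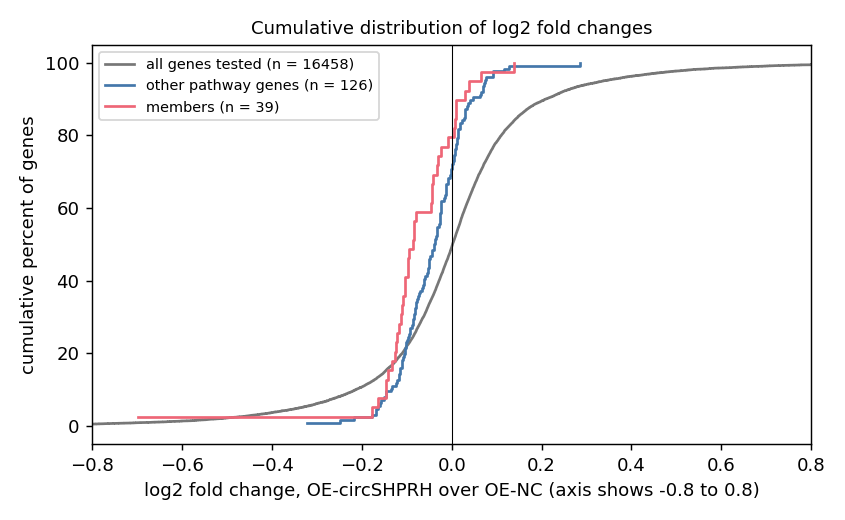
Cumulative percent of genes (y axis) by log2 fold change, OE-circSHPRH over OE-NC (x axis, shown from -0.8 to 0.8), for the 39 genes, the 126 other genes of the pathway and all 16458 genes tested. At 0 the curves stand at 79.5%, 70.6% and 49.2%, and both pathway curves are steeper than that of all genes.

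Several of the 39 genes carry snoRNA genes within their own span, so that a single transcript supplies both a protein and a guide RNA of the pathway. GENCODE 29 places 26 snoRNA genes inside 8 of them, on the same strand: GNL3, NOP56, NOP58, NCL, WDR43, DKC1, TSR1 and ODC1. The median log2 fold change was -0.07 for these 8 and -0.09 for the other 31, and the groups did not overlap, lower in OE-circSHPRH, in 4 of the 8 and in 10 of the other 31 (32.3%; all genes tested 7.56%). Of these snoRNAs 14 have a row, with 3 to 77 counts summed over the 6 libraries, and they were not compared between groups; the others were not analysed here. Exons of 15 of the 39 genes overlap exons of another gene that is no snoRNA or miRNA, and the use of strand in counting is not given in the sources used here. In these 15 the median log2 fold change was -0.11 and 14 were negative. In the 24 genes without such overlap it was -0.05 and 17 were negative. In each of these subsets 6 genes had an unadjusted edgeR p under 0.05, all lower. That is 40% of the 15 and 25% of the 24, against 5.02% of all genes tested.

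In the authors' deposited table, 10 of the 39 genes had a p-value under 0.05 (25.6%), all with a negative log2 fold change. Over all 28751 genes with a p in the authors' deposited table, genes with few counts included, 3.87% did. None of the 39 had an adjusted p under 0.05 in the authors' deposited table, where the lowest was 0.151, against 0.254% of all its genes.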

How the data were processed

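Raw read counts per gene and library were deposited by the authors without normalization, beside a count signal in which the authors divided each library by 1 size factor and an FPKM that the authors' deposited values show to be proportional to count over gene length. The authors' own test is deposited as well, as a p-value (raw and adjusted) and a log2 fold change per gene. Which aligner and counting tool were used, and whether strand was, is not given in the sources used here. GRCh37 is the build in the submitters' processing notes; by contrast, coordinates of all 28752 deposited genes are those of GENCODE 29 on GRCh38, which is used here.

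From the raw counts, genes were filtered with filterByExpr by group (minimum count 10, minimum total count 15), scaled by TMM and tested with the quasi-likelihood F-test of edgeR 4.0.16 (R 4.3.3). The test was two-sided, no term other than group entered, and p-values were adjusted by Benjamini-Hochberg over 16458 genes at 0.05. The biological coefficient of variation was 5.36%. The code was tested on simulated counts. CPM values are TMM-scaled (markers use the library total), log2 CPM has a prior count of 2, and SE is the absolute log2 fold change over the square root of F. Alternatives used DESeq2 1.42.0 and limma 3.58.1. The genes, the comparison list and the motif were chosen with earlier results of these data known. Members shown in every library had an unadjusted p under 0.05 or groups without overlap, or the highest FPKM of their role; of the other pathway genes up to 4 per direction with the smallest p are named. Promoters were to be printed for up to 6 genes with the smallest p and for genes with the motif; only the former are, for length. NHP2, DDX10 and NPM1 were shown in full after their values were seen.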

Additional observations from a re-analysis of the deposited data

How the results depend on the processing

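None of the 39 genes had an adjusted p under 0.05 in any of the 13 alternative settings, where the lowest was 0.0697, without OE-circSHPRH replicate 3. Of 507 gene values under these settings 482 kept their direction, and 26 of the 39 genes were negative in every setting. The count of genes called over the whole table, 31, was 194 without the low-count filter, 77 with DESeq2 and 171 once the mitochondrial class of the library was a term. It ran from 5 to 311 with each library left out: 6, 11 and 19 without OE-NC replicates 1, 2 and 3, and 24, 5 and 311 without OE-circSHPRH replicates 1, 2 and 3. Under the class term the median of the 39 was -0.06, and NPM1 (-0.04), WDR12 (-0.01), UTP20 (-0.01), WDR43 (-0.02), NAT10 (-0.02) and POLR1C (0.01) turned direction; the cause was not tested. With each library left out that median ran from -0.10 to -0.06, and the number of negative genes ran from 29 to 34. The median of the other pathway genes ran from -0.05 to -0.03. In the same fits NPM1 ran from -0.03 to 0.05, WDR12 from -0.02 to 0.03, UTP20 from -0.03 to 0.12, WDR43 from -0.03 to 0.04, NAT10 from -0.02 to 0.04, POLR1C from -0.12 to 0.03, GAR1 from -0.08 to 0.0027, TSR1 from -0.03 to 0.01, BYSL from -0.09 to 5.1e-05 and NHP2 from -0.30 to 0.10. Of the other pathway genes 0 were called in the main setting, 1 (PELP1) without the filter, with DESeq2 and under the class term, and 0 to 2 with a library left out (PELP1 and EIF6 without OE-circSHPRH replicate 3). Restricted to the 24 genes without exon overlap, a choice made after seeing the data, the median was -0.05 with 17 negative.

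No pairing by replicate number was seen: deviations from the group means of same-numbered libraries correlated at -0.0445, -0.0266 and -0.106. No library correlated best with its own number. Correlations across genes from 3 libraries per group cannot exclude cultures or batches shared by number, and the labels do not say. With the replicate block 6 genes were called over the whole table, 0 of the 39, and their median stayed at -0.09. Counts per library limit NOP2 (29 to 67) more than the other genes.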
